A study of Mus musculus with 12 samples.

Results

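Messenger RNA of 34 interferon response and antigen processing genes was followed in the livers of female mice given testosterone or vehicle. The 34 genes were taken by symbol from a list drawn up with earlier results of these data known: 16 are known mainly as genes induced by type I interferons, 10 mainly as genes induced by interferon gamma, and 8 process or present antigen. Many of them respond to both kinds of interferon, so the classes are not exclusive. A probe set carrying the symbol of the gene and no other was found for 32 of the 34, among 12393 genes with such a probe set on the array. All 32 were bright enough to be tested, among 7217 such genes in all. The only probe set of Isg15 is shared with another gene, and Ifi44 was matched to no probe set, so neither has a value here. The 32 genes were represented by 43 probe sets, and the one with the highest mean log2 signal stands for each gene.

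The mice were C57BL/6 females, an inbred strain, injected under the skin 2 times per week over 3 weeks, with 3 mice in each of 4 groups and 1 Affymetrix array per liver. Each testosterone dose was 0.9 mg of the hormone, dissolved in sesame oil, and vehicle mice received 100 µl of the oil alone. The livers were collected directly after the injections or after a further interval without injections, which the sample titles give as 12 weeks and the design text as 3 weeks; this interval is called withdrawal here. The stated question was how testosterone acts on female liver gene expression in the short and in the long term. No genetic alteration, surgery or age is given in the labels, and the mice of a group were separate animals.

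Interferons are secreted proteins that warn cells of infection. Type I interferons signal through the receptor IFNAR and the kinases JAK1 and TYK2 to a complex that holds STAT2 and IRF9 and binds the interferon-stimulated response element (ISRE). Interferon gamma, made by T cells and NK cells, signals through its own receptor to genes that carry the gamma-activated site (GAS). In liver both hepatocytes and Kupffer cells, the resident macrophages, respond to interferons. The immunoproteasome, in which Psmb8, Psmb9 and Psmb10 replace the constitutive catalytic subunits, cuts proteins into peptides, which the transporter Tap1-Tap2 and the adaptor tapasin (Tapbp) bring onto MHC class I molecules paired with B2m.

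Arrays had been scaled before deposit, with a trimmed mean signal between 100.049 and 100.055 on every array, and array medians lay between 20.14 and 22.57. The 8 hepatocyte markers with a probe set summed to 32726 to 34352 signal units in vehicle and 33345 to 34095 in testosterone livers at the end. After withdrawal they summed to 32269 to 35052 in vehicle and 34801 to 40571 in testosterone livers. Vehicle and testosterone sums overlapped at both times, while testosterone livers after withdrawal all lay above those at the end. Of 15 T and NK cell markers with a probe set, 2 (Cd4 and Cd8b1) lay at or under the floor of 4.84, the 25th percentile of all signals, on all 12 arrays, 11 on some arrays and 2 (Nkg7 and Prf1) on none. The 3' to 5' signal ratio of beta-actin, a sign of RNA quality that grows as the 5' part of the message is lost, was 1.52 ± 0.108 (SD, n = 3) in vehicle and 2.11 ± 0.0769 in testosterone livers at the end. After withdrawal it was 1.77 ± 0.154 in vehicle and 1.62 ± 0.179 in testosterone mice, with overlapping groups.

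The promoters of these genes show what the list members share in sequence. RefSeq promoter windows of 300 bases, from 250 bases before to 50 bases after a start site in mouse build GRCm38.p6, were matched to 28 of the 34 genes; Usp18, Zbp1, Parp14, Iigp1, Tap2 and Cd74 were not matched. The ISRE core was searched as GAAANNGAAA on either strand (TTTCNNTTTC on the other), and the GAS core as TTCNNNGAA, which reads the same on both strands; matches may overlap. An ISRE core was in a window of 14 of the 28 genes (50%), compared with 3.99% of 27025 genes in the table. A GAS core was in 6 of the 28 (21.4%), compared with 9.55% of all genes. By class, 7 of 13 type I genes, 6 of 9 gamma-interferon genes and 1 of 6 antigen processing genes held an ISRE core, and 2, 3 and 1 of them a GAS core. A match is a run of letters and not a measured binding site.

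The 150 bases before the start site follow for 5 interferon-induced genes whose signals fell in testosterone livers, for the immunoproteasome gene Psmb8, which fell, and for B2m, which holds an ISRE core and was not called. Each is written 5′ to 3′ on the strand of the gene, with ISRE and GAS cores in capitals.
Gbp2 (chr3:142620513-142620662, plus strand): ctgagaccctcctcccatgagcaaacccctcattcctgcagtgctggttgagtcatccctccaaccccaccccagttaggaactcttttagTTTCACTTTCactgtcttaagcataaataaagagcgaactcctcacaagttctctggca
Igtp (chr11:58199406-58199555, plus strand): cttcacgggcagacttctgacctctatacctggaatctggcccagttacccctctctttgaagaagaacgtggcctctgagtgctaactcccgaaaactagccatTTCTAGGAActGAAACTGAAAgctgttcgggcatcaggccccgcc
Irgm2 (chr11:58214827-58214976, plus strand): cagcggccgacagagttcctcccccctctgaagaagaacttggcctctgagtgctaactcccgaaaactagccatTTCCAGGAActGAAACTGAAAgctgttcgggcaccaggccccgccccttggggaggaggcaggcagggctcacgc
Irgm1 (chr11:48871421-48871570, minus strand): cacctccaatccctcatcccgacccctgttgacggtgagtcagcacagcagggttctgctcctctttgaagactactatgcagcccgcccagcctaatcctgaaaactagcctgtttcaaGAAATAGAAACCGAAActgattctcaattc
Ifit1 (chr19:34640739-34640888, plus strand): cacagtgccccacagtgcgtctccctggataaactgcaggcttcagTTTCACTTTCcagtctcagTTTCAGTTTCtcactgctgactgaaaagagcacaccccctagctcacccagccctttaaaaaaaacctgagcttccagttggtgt
Psmb8 (chr17:34198045-34198194, plus strand): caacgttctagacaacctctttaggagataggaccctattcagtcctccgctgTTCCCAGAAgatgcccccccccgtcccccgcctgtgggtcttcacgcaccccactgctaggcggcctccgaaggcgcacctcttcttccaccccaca
B2m (chr2:122147537-122147686, plus strand): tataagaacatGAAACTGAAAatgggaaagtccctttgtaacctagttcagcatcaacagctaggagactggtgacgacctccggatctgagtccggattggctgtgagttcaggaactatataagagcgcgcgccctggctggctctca
Gbp2 has an ISRE core whose first base is at -59 from the start, on the other strand, and Ifit1 has a pair of them. Igtp and Irgm2, neighbours on chromosome 11 with 0 protein-coding genes between them, carry a GAS core followed by an ISRE core, at -45 and -34 in Igtp and at -75 and -64 in Irgm2. The printed stretches of these neighbours share a run of 38 identical letters and match at 103 of 120 aligned letters, whereas the next longest shared run among the 7 promoters was 12 letters, between Gbp2 and Ifit1. Psmb8 has a GAS core at -97 and no ISRE core in the window.

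Where interferon response and antigen processing genes differed between testosterone and vehicle livers, they were lower with testosterone, at both times. At the end of treatment 13 of the 32 fell, 0 rose and 19 were not called at an adjusted p under 0.05 (limma, 2-sided, Benjamini-Hochberg over 7217 genes), where 8.01% of all genes tested fell. After withdrawal 11 of the 32 fell, 0 rose and 21 were not called, where 3.26% of all genes fell. The median log2 change of the 32 was -0.47 at the end and -0.61 after withdrawal, while that of all genes tested was 0.04 and -0.04. Of the 32 log2 changes, 29 were below 0 at the end and 30 after withdrawal. Oasl2 and Cxcl10, counted here, passed the brightness filter through vehicle livers alone. With a filter on 6 arrays 29 members were tested, of which 13 and 11 were called lower, where 8.23% and 3.32% of all genes were. Because livers were measured whole, fewer cells of a type and less RNA per cell cannot be told apart.

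Ifit1, Ifih1, Gbp2, Igtp, Psmb8, Psmb10 and Tapbp, 7 of the 32, fell at both times, where 1.59% of all genes tested did. Another 6 were called at the end alone (Ifit3, Zbp1, Stat2, Gbp3, Irgm1, Cxcl9) and 4 after withdrawal alone (Usp18, Parp14, Irf9, Irgm2). The remaining 15 were called at neither time. Counted by mouse, all 3 testosterone livers lay below all 3 vehicle livers for 18 of the 32 at the end (15.1% of all genes) and for 24 after withdrawal (14.7%). For 15 of the 32 this held at both times, compared with 4.57% of all genes. The 18 include Cxcl10 and the 24 include Oasl2, dim genes that passed the brightness filter through vehicle livers alone.

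**Figure D1:**
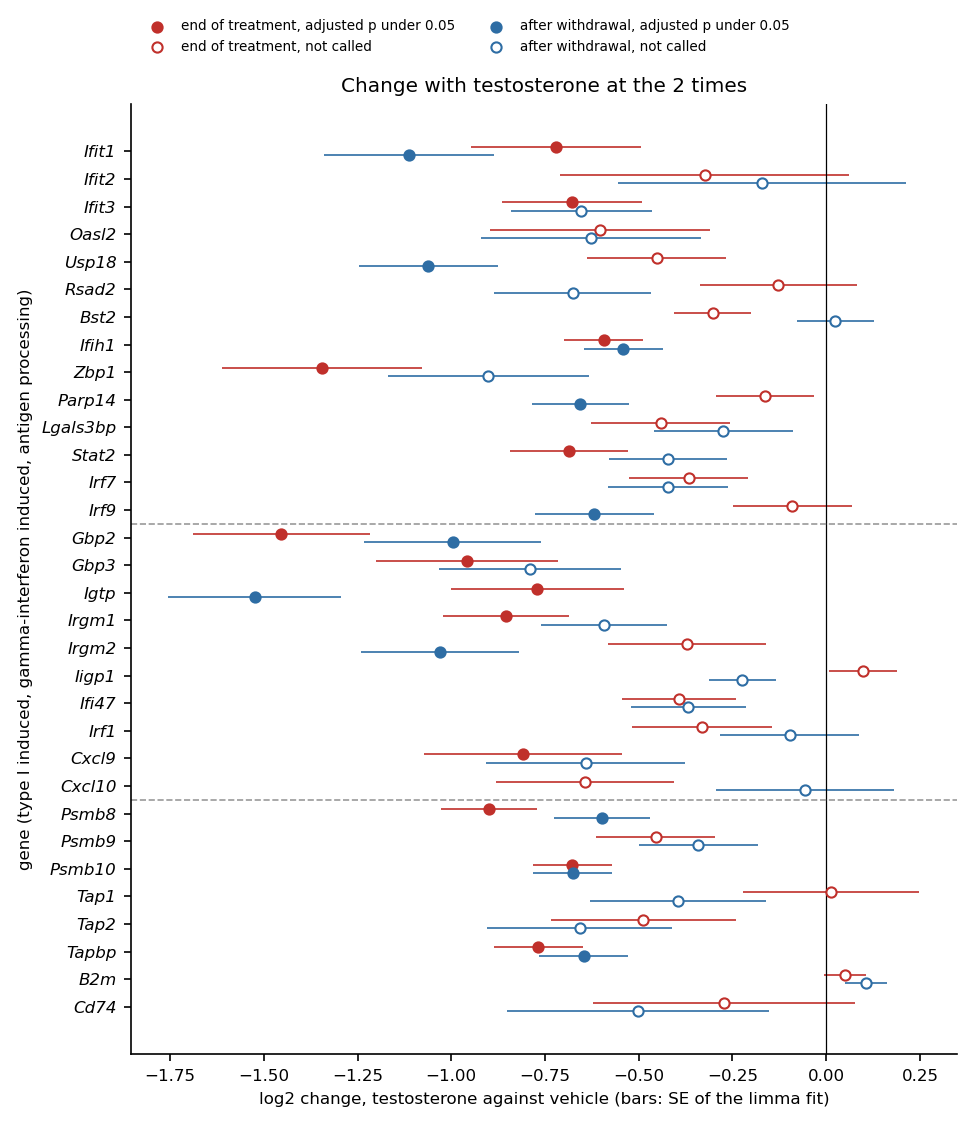
Log2 change of each of the 32 genes in testosterone against vehicle livers at the end of treatment (red) and after withdrawal (blue), with the SE of the limma fit over 12 arrays; filled points have an adjusted p under 0.05. Points lie left of 0 for 29 genes at the end and for 30 after withdrawal, and filled points number 13 and 11.

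All 3 classes had members that fell at each time. At the end 5 of 14 type I genes, 5 of 10 gamma-interferon genes and 3 of 8 antigen processing genes fell, with median log2 changes of -0.45, -0.71 and -0.47. After withdrawal 5 of 14, 3 of 10 and 3 of 8 fell, with medians of -0.62, -0.62 and -0.55. Over all genes tested, 8.01% fell at the end and 3.26% after withdrawal. Summed over the 14 type I members, signals were 1508 to 1923 in vehicle and 1201 to 1320 in testosterone livers at the end, and 1480 to 1720.1 and 1165 to 1312 after withdrawal, apart both times. Sums of the 10 gamma-interferon members overlapped at the end (2849 to 3625 and 2620.5 to 2971) and were apart after withdrawal (3067 to 3734 and 2276 to 2886). Most of that sum was Iigp1, called at neither time, with a mean of 1828 of 3184.5 in vehicle livers at the end. The sum thus shows little of the other gamma-interferon members. Sums of the 8 antigen processing members were apart at the end (4936 to 5323 and 4564 to 4777) and overlapped after withdrawal (5058 to 5226 and 4781 to 5099). Here B2m, called at neither time, was most of the sum, with a mean of 3557 of 5145 in vehicle livers at the end. This sum thus shows little of the other antigen processing members. The promoter matches were spread over called and uncalled genes: of 14 genes called lower at either time that had a window, 9 held an ISRE core and 3 a GAS core, and of 12 genes called at neither time, 4 and 3 did.

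Single mice stood high or low for many members at once. Among vehicle mice at the end, mouse 1 had the highest signal for 24 of the 32 genes (36.8% of all genes tested) and mouse 2 the lowest for 24 (41.8% of all genes). Among testosterone mice at the end, mouse 3 had the lowest for 25 (37.4% of all genes). After withdrawal, vehicle mouse 1 was highest for 19 (33.2% of all genes) and testosterone mouse 2 lowest for 20 (30.4%). The count called lower at the end was 8 without vehicle mouse 1, where 5.07% of all genes fell, 8 without testosterone mouse 3, where 6.26% did, and 16 without vehicle mouse 2, where 6.96% did. When the model also held the actin ratio, 0 of the 32 were called at the end, with a median of -0.29 and 78 genes called in all in place of 1258. After withdrawal 10 of the 32 were then called lower, where 2.01% of all genes were, with a median of -0.62. At the end the actin ratio was 1.44 to 1.64 in vehicle and 2.03 to 2.19 in testosterone livers, without overlap. With the ratio in the model the SE of each of the 13 genes called at the end grew, for Ifih1 from 0.11 to 0.21. RNA quality and treatment cannot be told apart there, and the part of RNA quality in the difference at the end was not tested. Calls after withdrawal ranged from 8 to 16 when 1 mouse was left out. The 8 were without vehicle mouse 3, where 1.91% of all genes were lower, and the 16 without testosterone mouse 1, where 4.99% were.

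**Figure D2:**
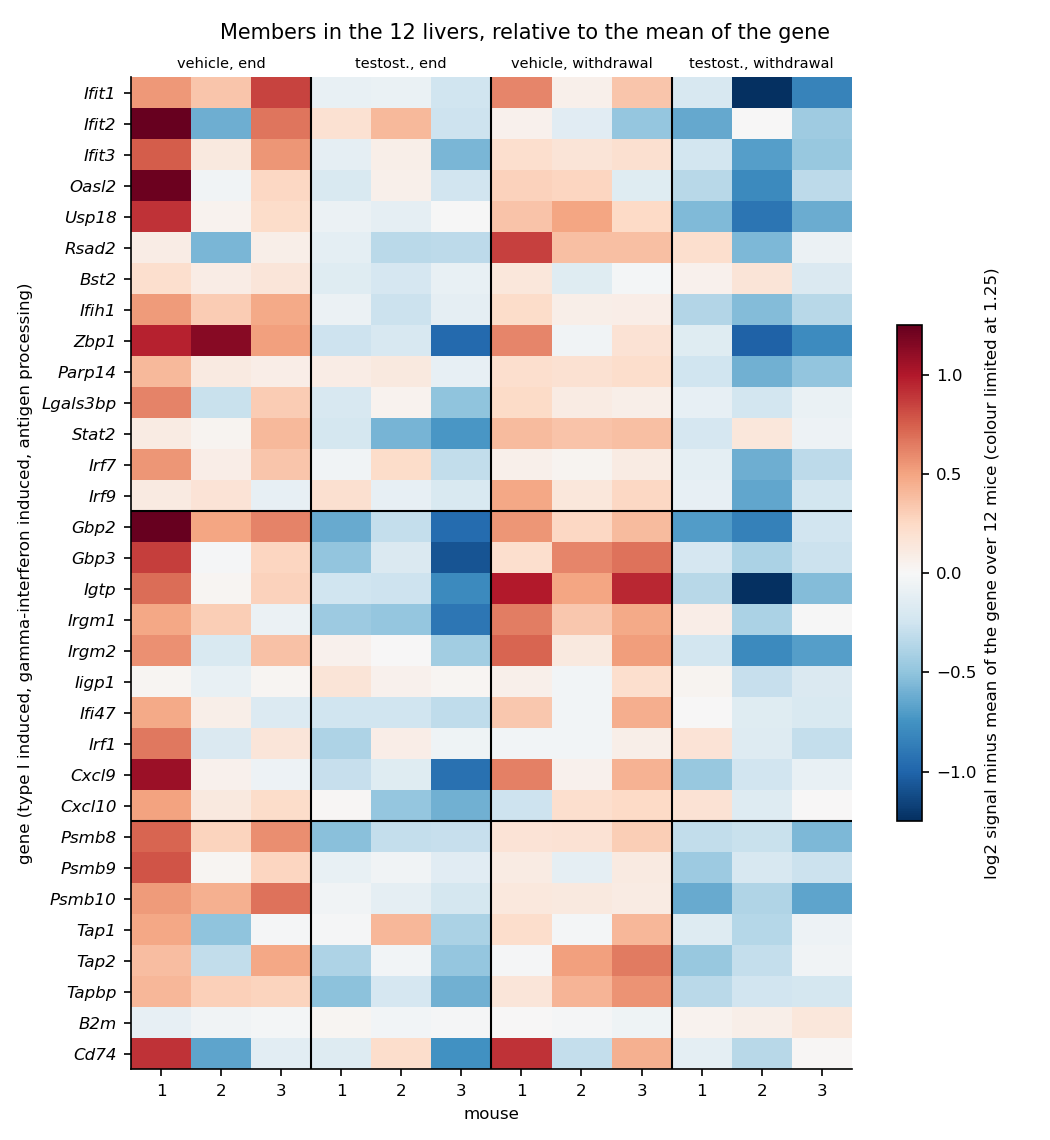
Signals of the 32 genes (rows, by class) in the 12 livers (columns), as log2 signal minus the mean of the gene over the 12 mice; red is above and blue below that mean. Vehicle mouse 1 at the end is the reddest column of its group and testosterone mouse 3 the bluest of its own, and the vehicle blocks are redder than the testosterone blocks at both times.

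Among the type I interferon genes, the largest change was that of Zbp1 at the end and that of Ifit1 after withdrawal. Zbp1 (probe set 1429947_a_at), a sensor of left-handed nucleic acid helices that can trigger cell death, had signals of 65.5, 74.3 and 48.1 in vehicle and 28.2, 29.4 and 17.2 in testosterone livers at the end. The groups did not overlap and the signal was 2.54-fold lower (log2 change -1.34 ± 0.27 SE, adjusted p = 0.00369). After withdrawal Zbp1 measured 51.5, 32.8 and 38.3 in vehicle and 30.3, 16.8 and 19.6 in testosterone livers. These groups too were apart, with a log2 change of -0.90 ± 0.27 that was not called (adjusted p = 0.0608). The dimmer second probe set of Zbp1 was lower in all testosterone livers at both times as well.

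Ifit1 (1450783_at), which binds viral RNA and blocks its translation, measured 83.6, 72.8 and 103 in vehicle and 53.7, 54.2 and 48.3 in testosterone livers at the end. After withdrawal its signals were 87.7, 59.9 and 72.8 in vehicle and 49.8, 23.6 and 32.2 in testosterone livers. All testosterone livers were below all vehicle livers at each time, by 1.65-fold at the end (log2 change -0.72 ± 0.23, adjusted p = 0.0399) and by 2.16-fold after withdrawal (-1.11 ± 0.23, adjusted p = 0.0077). Of 6 fits that each left out 1 mouse, the call at the end held in 1, without vehicle mouse 2; in the other 5 the adjusted p was between 0.0818 (without testosterone mouse 2) and 0.126 (without vehicle mouse 3). Ifit3, of the same family, measured 102, 65.3 and 88.1 in vehicle and 55.7, 63.2 and 40.5 in testosterone livers at the end. It fell by 0.68 ± 0.19 on the log2 scale (adjusted p = 0.0224), a call lost without vehicle mouse 1 (adjusted p = 0.0983), vehicle mouse 3 (0.0598) or testosterone mouse 3 (0.0967). After withdrawal Ifit3 changed by -0.65 ± 0.19 and was not called (adjusted p = 0.0536). Ifit2, the neighbour of Ifit3, was dim, above the array median on 3 of 12 arrays, and its groups overlapped at both times.

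Usp18 (1418191_at), which removes ISG15 from proteins and dampens the type I receptor, was the type I gene with the lowest adjusted p after withdrawal. Its signals then were 75.8, 83.2 and 70.5 in vehicle and 40.3, 31.4 and 38.6 in testosterone livers, 2.09-fold lower (-1.06 ± 0.19, adjusted p = 0.00267). At the end they were 111, 61.0 and 69.6 in vehicle and 56.4, 54.9 and 59.2 in testosterone livers. Here vehicle mouse 1 stood high, the groups did not overlap, and the change of -0.45 ± 0.19 was not called (adjusted p = 0.107). Parp14, an ADP-ribosyltransferase, had a similar order, with a change of -0.16 ± 0.13 and overlapping groups at the end and of -0.66 ± 0.13 after withdrawal (adjusted p = 0.00665). Its withdrawal signals were 88.4, 87.1 and 89.1 in vehicle and 64.1, 50.3 and 54.3 in testosterone livers, far apart against the spread within each group.

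Ifih1 (1426276_at), which encodes the cytosolic RNA sensor MDA5, fell at both times by a like amount. It measured 243, 210.2 and 234 in vehicle and 160.4, 139.7 and 155 in testosterone livers at the end, 1.51-fold lower (-0.59 ± 0.11, adjusted p = 0.0016). After withdrawal the signals were 197, 177 and 178 in vehicle and 131, 116 and 133 in testosterone livers, 1.46-fold lower (-0.54 ± 0.11, adjusted p = 0.00591). No mouse of one group reached the other at either time, and the call held without each single mouse.

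Of the signalling factors in the list, Stat2 (1450403_at) measured 56.4, 53.7 and 69.5 in vehicle and 45.2, 35.3 and 31.8 in testosterone livers at the end, a change of -0.69 ± 0.16 (adjusted p = 0.00881). A second, dimmer Stat2 probe set (1421911_at) went the other way, with 26.9, 31.4 and 19.9 in vehicle and 38.6, 36.2 and 33.4 in testosterone livers. The call was lost when both were averaged (-0.10 ± 0.13, adjusted p = 0.648), so the direction of Stat2 rests on the choice of probe set. Irf9, the DNA-binding partner of STAT2, was not called at the end (-0.09 ± 0.16, adjusted p = 0.738) and fell after withdrawal (-0.62 ± 0.16, adjusted p = 0.0311). That call was lost without any 1 of vehicle mice 1, 2 and 3 or testosterone mice 2 and 3, with adjusted p between 0.0515 and 0.15. Irf7, the factor that amplifies type I interferon production, was called at neither time (-0.37 ± 0.16 and -0.42 ± 0.16).

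Rsad2, Bst2, Lgals3bp and Oasl2 were called at neither time. Rsad2 encodes viperin, which makes an antiviral nucleotide. On its dimmer probe sets (1421008_at and 1421009_at) testosterone and vehicle livers overlapped at both times. On its brightest (1436058_at) the withdrawal signals were 152, 109 and 109 in vehicle and 97.2, 56.9 and 79.8 in testosterone livers. These did not overlap (-0.68 ± 0.21, adjusted p = 0.0709), while the groups at the end did (-0.13 ± 0.21). Bst2, which encodes tetherin and holds budding viruses on the cell, showed the reverse order, with separate groups at the end (-0.30 ± 0.10, adjusted p = 0.0562) and overlapping ones after withdrawal (0.02 ± 0.10). Lgals3bp, a secreted galectin-binding glycoprotein, changed by -0.44 ± 0.19 and -0.27 ± 0.19, and Oasl2, above the array median on 4 of 12 arrays, by -0.60 ± 0.29 and -0.63 ± 0.29. Those 4 arrays were 2 vehicle livers of each time, with 0 testosterone livers among them.

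**Figure D3:**
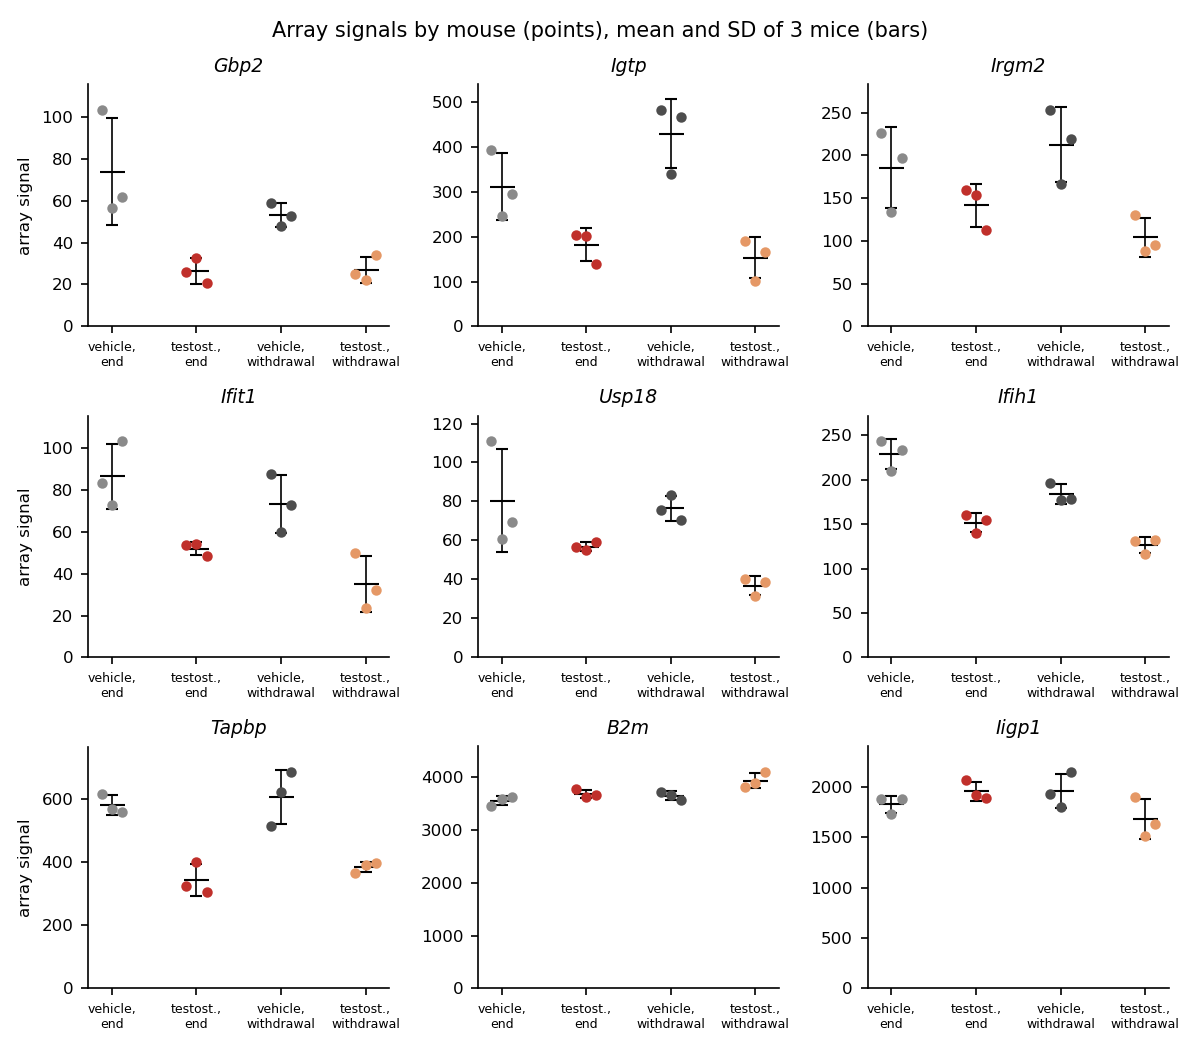
Array signal (linear axis from 0) of 9 genes in each mouse of the 4 groups, with mean and SD of 3 mice. Gbp2, Igtp, Ifit1, Usp18, Ifih1 and Tapbp have testosterone mice below all vehicle mice at both times, Irgm2 only after withdrawal, and B2m and Iigp1 were called at neither time.

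Gamma-interferon genes included the largest changes of the list at each time. Gbp2 (1418240_at), a guanylate-binding protein that attacks the vacuoles of intracellular pathogens, measured 103, 56.4 and 61.8 in vehicle and 26.0, 32.6 and 20.6 in testosterone livers at the end. After withdrawal it measured 59.0, 47.9 and 52.8 in vehicle and 24.8, 22.3 and 34 in testosterone livers. The groups were apart at both times, 2.74-fold at the end (-1.45 ± 0.24, adjusted p = 0.000819) and 2.00-fold after withdrawal (-1.0 ± 0.24, adjusted p = 0.0195). The withdrawal call was lost without vehicle mouse 1 (adjusted p = 0.0622), vehicle mouse 3 (0.0636) or testosterone mouse 2 (0.094). A second Gbp2 probe set (1435906_x_at), of a kind that can cross-hybridise with related genes, was lower without overlap at both times, with log2 changes of -1.31 and -1.45.

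Gbp3, the neighbouring family member, measured 70.4, 38.3 and 46.5 in vehicle and 27.5, 34.2 and 18.2 in testosterone livers at the end. It fell by 0.96 ± 0.24 on the log2 scale (adjusted p = 0.0145), a call lost without vehicle mouse 1 (adjusted p = 0.0719) or testosterone mouse 3 (0.0624). After withdrawal its change was -0.79 ± 0.24 (adjusted p = 0.0699), again without overlap of the groups.

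The immunity-related GTPases, which disrupt pathogen vacuoles and regulate autophagy, did not all move alike. Igtp (1417141_at) measured 482, 341 and 467 in vehicle and 190.0, 102 and 167 in testosterone livers after withdrawal, 2.88-fold lower and the largest change of the 32 at that time (-1.52 ± 0.23, adjusted p = 0.000793). At the end its signals were 393, 246 and 296 in vehicle and 204, 202 and 139.6 in testosterone livers. The groups were apart here too (-0.77 ± 0.23, adjusted p = 0.0322), but the call was lost without vehicle mouse 1 (adjusted p = 0.131), vehicle mouse 3 (0.0578) or testosterone mouse 3 (0.127).

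Irgm2 (1417793_at), whose promoter resembles that of Igtp, measured 253, 166 and 219 in vehicle and 130.2, 87.9 and 94.6 in testosterone livers after withdrawal, 2.04-fold lower (-1.03 ± 0.21, adjusted p = 0.00827). At the end the vehicle signals of 227, 134 and 197 overlapped the testosterone signals of 159, 153 and 113 (-0.37 ± 0.21, adjusted p = 0.247). Irgm1 (1418825_at) had the opposite order of calls. It measured 204, 180.3 and 139 in vehicle and 106, 104 and 78.1 in testosterone livers at the end, 1.81-fold lower (-0.85 ± 0.17, adjusted p = 0.0035), and its change after withdrawal was -0.59 ± 0.17 (adjusted p = 0.0511), with the groups apart both times. For none of these GTPases did the test of the difference between the times pass.

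Iigp1 and Ifi47, also of this GTPase family, were called at neither time. Iigp1 measured 1875, 1730.0 and 1879 in vehicle and 2066, 1918 and 1886 in testosterone livers at the end, where every testosterone mouse was slightly higher (0.10 ± 0.09, adjusted p = 0.487). Its other probe set (1419042_at) was lower in every testosterone mouse at the same time (-0.20), so the probe sets of Iigp1 disagree in sign. Ifi47 changed by -0.39 ± 0.15 at the end and -0.37 ± 0.15 after withdrawal.

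The chemokines Cxcl9 and Cxcl10 draw CXCR3-bearing T cells into tissue. Cxcl9 (1418652_at) measured 230.2, 113 and 105 in vehicle and 89.6, 98.3 and 57.5 in testosterone livers at the end, where vehicle mouse 1 stood well above every other mouse. The call (-0.81 ± 0.26, adjusted p = 0.0475) was lost without vehicle mouse 1 (-0.45, adjusted p = 0.195), testosterone mouse 1 (0.0734) or testosterone mouse 3 (0.184). When the model held the actin ratio the sign of Cxcl9 turned (0.14 ± 0.47, adjusted p = 0.944). After withdrawal Cxcl9 changed by -0.64 ± 0.26 (adjusted p = 0.178), with separate groups. Cxcl10, above the array median on 5 of 12 arrays, changed by -0.64 ± 0.24 and -0.06 ± 0.24 and was called at neither time. Those 5 arrays were 3 vehicle livers of the end and 2 of the withdrawal time, with 0 testosterone livers. Irf1, the transcription factor that interferon gamma induces early, overlapped between the groups at both times (-0.33 ± 0.19 and -0.10 ± 0.19).

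Among the antigen processing genes, Psmb8, Psmb10 and Tapbp fell at both times and the other 5 were called at neither. Psmb8 (1422962_a_at) measured 267, 196 and 242 in vehicle and 113, 131 and 132 in testosterone livers at the end, 1.86-fold lower (-0.90 ± 0.13, adjusted p = 0.000308). After withdrawal it measured 181, 182 and 199.7 in vehicle and 131, 133 and 109.6 in testosterone livers, 1.51-fold lower (-0.60 ± 0.13, adjusted p = 0.0109). No vehicle mouse was as low as a testosterone mouse at either time. The withdrawal call was lost without vehicle mouse 3 (adjusted p = 0.056) or testosterone mouse 3 (0.0609).

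Psmb10 (1448632_at) was 1.60-fold lower at both times. Its signals were 301, 282 and 333 in vehicle and 202, 192 and 178 in testosterone livers at the end (-0.68 ± 0.11, adjusted p = 0.000568). After withdrawal they were 227, 226 and 223 in vehicle and 134, 159.5 and 132 in testosterone livers (-0.68 ± 0.11, adjusted p = 0.00102). Psmb9, the third inducible subunit, was lower in every testosterone mouse at both times, with changes of -0.46 ± 0.16 (adjusted p = 0.0602) and -0.34 ± 0.16 (adjusted p = 0.238) that were not called.

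The constitutive subunits that these replace, Psmb5, Psmb6 and Psmb7, had log2 changes above 0 at both times, and 0 of the 3 were called. The changes were 0.13 ± 0.09, 0.21 ± 0.08 and 0.16 ± 0.08 at the end and 0.19 ± 0.09, 0.15 ± 0.08 and 0.25 ± 0.08 after withdrawal. Their summed signal was 2573 to 2681 in vehicle and 2885 to 3000 in testosterone livers at the end, and 2394 to 2502 and 2675 to 2970 after withdrawal, higher in every testosterone mouse each time. Whether the inducible and the constitutive subunits differ in their change was not tested.

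**Figure D4:**
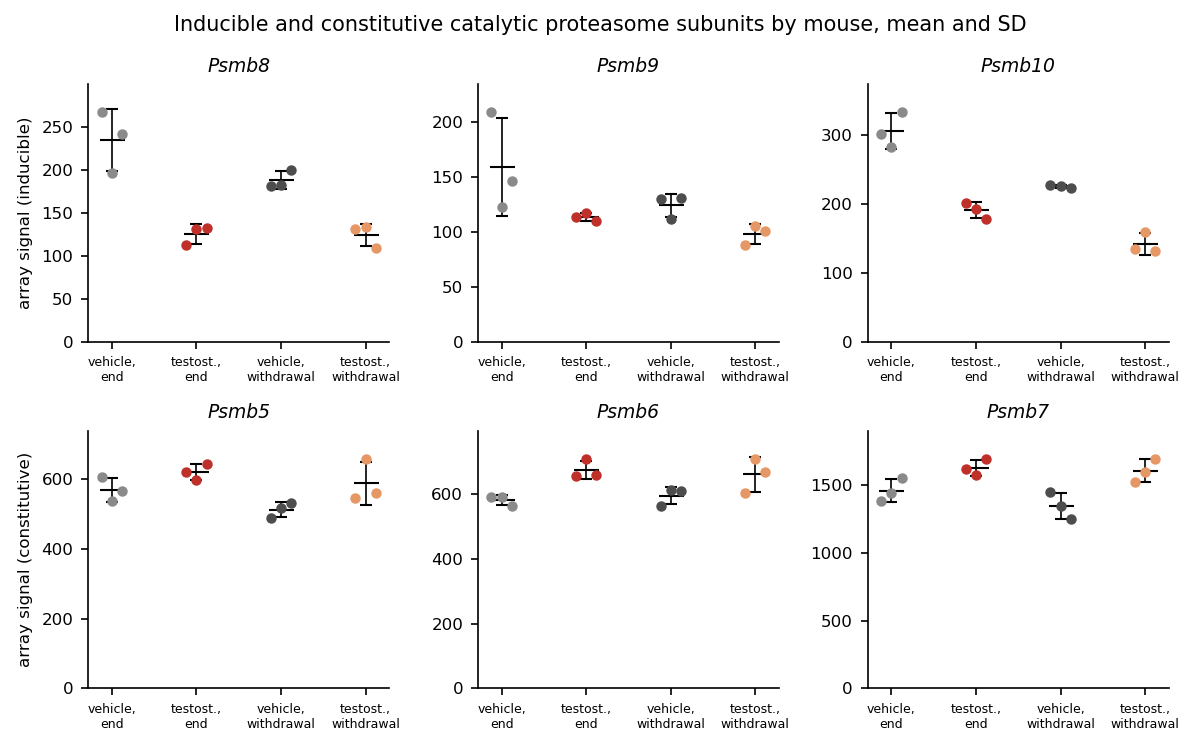
Array signal of the inducible subunits Psmb8, Psmb9 and Psmb10 (top) and the constitutive subunits Psmb5, Psmb6 and Psmb7 (bottom) in each mouse, with mean and SD of 3 mice. The inducible subunits are lower in every testosterone mouse than in every vehicle mouse of the same time, and the constitutive ones are not.

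Tapbp (1421812_at), which encodes tapasin, measured 618, 569 and 561 in vehicle and 325, 401 and 306 in testosterone livers at the end, 1.70-fold lower (-0.77 ± 0.12, adjusted p = 0.000537). After withdrawal the signals were 514, 623 and 686 in vehicle and 367, 392 and 397 in testosterone livers, 1.57-fold lower (-0.65 ± 0.12, adjusted p = 0.00396). Groups were apart at both times and the calls held without each single mouse. The dimmer second probe set of Tapbp (1450378_at) measured 81.0, 103 and 73.0 in vehicle and 33.6, 35.4 and 30.4 in testosterone livers at the end. After withdrawal it overlapped, at 102, 78.5 and 61.2 in vehicle and 70.4, 69.1 and 64.2 in testosterone livers, so the probe sets disagree about the later time.

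The peptide transporter genes were called at neither time. Tap1 changed by 0.01 ± 0.24 at the end, with overlapping groups, and by -0.40 ± 0.24 after withdrawal. Tap2 changed by -0.49 ± 0.25 and -0.66 ± 0.25. B2m (1449289_a_at), the light chain of every MHC class I molecule, measured 3456, 3586 and 3630.0 in vehicle and 3766, 3615 and 3665 in testosterone livers at the end. After withdrawal it measured 3723, 3669.5 and 3564 in vehicle and 3818, 3894 and 4089.8 in testosterone livers. The first groups overlapped, the second did not, and neither change was called (0.05 ± 0.06, and 0.11 ± 0.06 with an adjusted p of 0.3). Cd74, the invariant chain of MHC class II made by antigen-presenting cells, ranged from 124 to 367 among vehicle mice at the end, and overlapped at both times.

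Of 25 tested genes for interferon ligands, receptors and signalling, 1 fell and 2 rose at the end, and 0 fell and 1 rose after withdrawal. Of the 7217 genes tested in all, 578 fell and 680 rose at the end, and 235 fell and 198 rose after withdrawal. Ifnar2, a chain of the type I receptor, fell at the end (-0.34 ± 0.10, adjusted p = 0.0323), and Socs3, a feedback inhibitor of cytokine signalling, rose (1.20 ± 0.31, adjusted p = 0.0149). The ligand genes Ifng and Ifna4 lay at or under the floor on all 12 arrays, Ifnb1 on 11 and Ifna1 on 4. Ifna2 was above the floor on every array and above the array median on 2, with a highest signal of 26.8.

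Of 34 other interferon-induced genes tested, 11 were called lower, 0 higher and 23 neither way at the end, and 8, 0 and 26 after withdrawal, with median changes of -0.26 and -0.44. Among all genes tested, 8.01% were called lower at the end and 3.26% after withdrawal. The genes named next are among the called genes of the 34. Uba7, the enzyme that activates ISG15, changed by -1.22 ± 0.18 and -0.85 ± 0.18 (adjusted p = 0.000377 and 0.00983). The helicase gene Ddx60 changed by -0.93 ± 0.27 and -1.42 ± 0.27 (adjusted p = 0.0272 and 0.00473). Ddx60 was dim, above the array median on 5 arrays. All its testosterone signals, from 6.32 to 15.6, lay under the lowest array median of 20.14. It thus passed the brightness filter through vehicle livers alone. Gbp7, of the Gbp2 family, also fell at both times (-0.49 ± 0.15 and -0.90 ± 0.15, adjusted p = 0.0389 and 0.00197). Gbp6 was called after withdrawal (-1.21 ± 0.28, adjusted p = 0.0189), and Ifi27l2a and Samhd1, an enzyme that depletes nucleotides, at the end (-0.95 ± 0.22 and -0.60 ± 0.18, adjusted p = 0.00886 and 0.0321). Of 14 other MHC class I and processing genes, 1 fell and 2 rose at the end, and 0 fell and 2 rose after withdrawal. Among all 7217 genes tested, 680 rose at the end and 198 after withdrawal. H2-D1, a class I heavy chain, fell at the end (-0.45 ± 0.11, adjusted p = 0.0145), whereas H2-K1 changed by -0.17 ± 0.08 (adjusted p = 0.162). Calr, a chaperone that loads class I molecules, rose at both times (0.48 ± 0.08 and 0.36 ± 0.08, adjusted p = 0.000754 and 0.0112). The chaperone gene Canx rose at the end (0.40 ± 0.11, adjusted p = 0.0182) and Pdia3, a partner of tapasin, after withdrawal (0.44 ± 0.11, adjusted p = 0.0217). Of 8 MHC class II and processing genes, 2 fell at the end, the lysosomal proteases Lgmn and Ctsb (-0.64 ± 0.16 and -0.33 ± 0.08, adjusted p = 0.0124 and 0.0119), and 0 after withdrawal.

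Markers of immune cells moved with these genes in part. Of 20 macrophage markers tested, 9 fell and 0 rose at the end, with their summed signal at 5506 to 8231 in vehicle and 4188 to 4852 in testosterone livers. After withdrawal 2 fell and 0 rose, and the sums overlapped, at 3330 to 5378 and 3452 to 3882, while the summed signal of the 32 members was again apart, at 9604 to 10512 and 8346 to 8978. B2m and Iigp1, called at neither time, weigh most in the member sum. Their means were 3652 and 1959 of 10185 in vehicle livers after withdrawal. T and NK cell markers were dim, with 0 of 15 passing the brightness filter. Their sums overlapped at the end (92.3 to 124 and 67.3 to 92.9) and were apart after withdrawal (113 to 123 and 70.1 to 108). Sums of 9 B and plasma cell markers were lower in every testosterone mouse at both times, at 813 to 1042 and 728 to 769 at the end and at 1310 to 1538 and 730.2 to 1065 after withdrawal. Most of that sum was Sdc1, which marks plasma cells and is also made by hepatocytes, with means of 786 and 652 at the end, where its groups overlapped, and of 1164 and 735 after withdrawal. The other 8 markers summed to 128 to 149.7 in vehicle and 84.6 to 94.2 in testosterone livers at the end, and to 184 to 371 and 106 to 155 after withdrawal, apart both times. The largest part was Ighm, with means of 67.2 and 36.7 at the end and of 166 and 61.1 after withdrawal. Means of the dim Ms4a1, Pax5 and Blk were higher with testosterone at the end, and of Pax5 after withdrawal, while the rest were lower. Of the 9 markers, 3 passed the brightness filter. Among these 3, 0 were called at the end, and 2 were called lower and 0 higher after withdrawal. At the end 2 of 11 endothelial markers and 9 of 22 acute phase genes also fell, and after withdrawal 0 and 3. For all these lists the share of all genes tested that fell was 8.01% at the end and 3.26% after withdrawal. The acute phase sum of vehicle mouse 2 at the end was 62032, against 42606 and 41557 in the other vehicle mice of that time. The part of these cell types in the changes of the members was not tested.

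**Figure D5:**
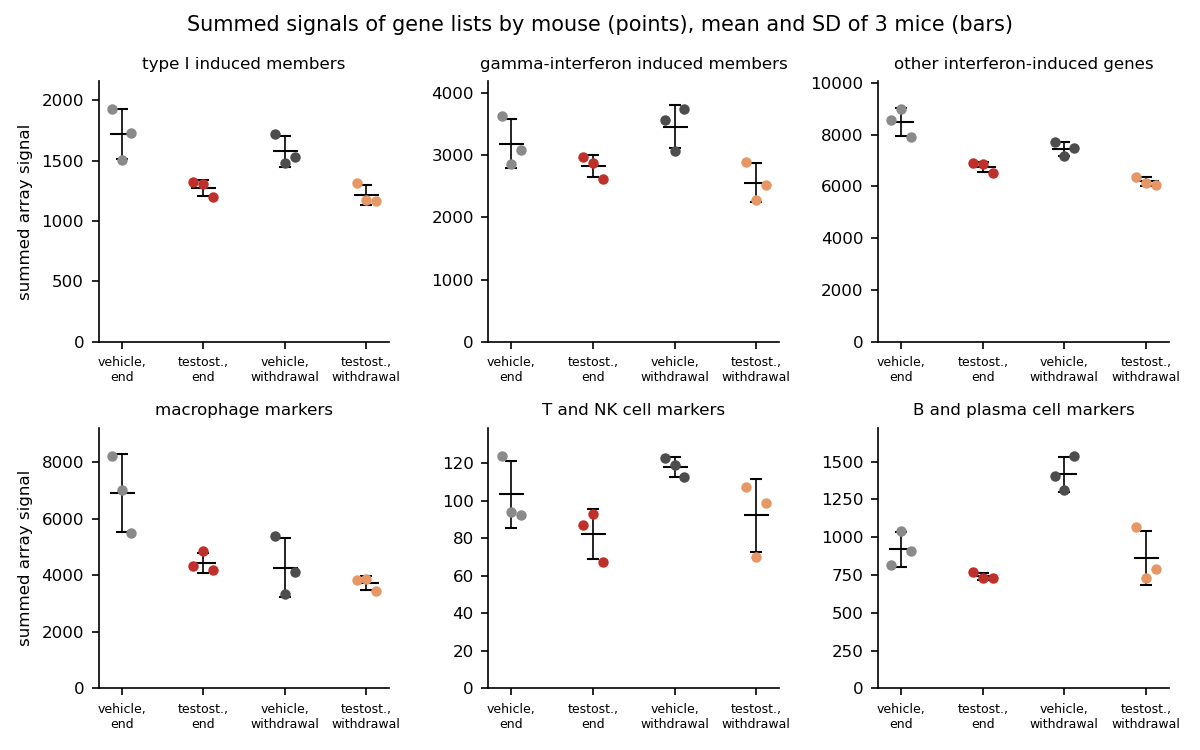
Summed array signals per mouse of the type I and gamma-interferon members, of other interferon-induced genes and of markers of macrophages, T and NK cells, and B and plasma cells, with mean and SD of 3 mice. Macrophage sums are separate between vehicle and testosterone mice at the end and overlap after withdrawal, while the type I members are separate at both times. Sdc1 makes up most of the B and plasma cell sums, and Iigp1 most of the gamma-interferon sums.

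The size of the testosterone effect was compared between the times by the interaction of treatment and time. It passed for 0 members in either direction, where 1.40% of all genes were called lower and 0.790% higher; at an unadjusted p under 0.05 the members had 6 lower and 1 higher, where 14.0% and 7.88% of all genes were. The smallest adjusted p was 0.139, for Parp14 (-0.49 ± 0.18). The differences ran from -0.75 ± 0.33 for Igtp to 0.59 ± 0.34 for Cxcl10, so changes of that order between the times could not be separated from the spread of 3 mice. Tapbp passed when its probe sets were averaged (0.63, adjusted p = 0.048) and Iigp1 without testosterone mouse 1 of the withdrawal group (-0.41, adjusted p = 0.046).

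Within vehicle mice, 1 member was lower and 1 higher at the later of the times; these comparisons share groups with those above. Psmb10 was lower at the withdrawal time (-0.43 ± 0.11, adjusted p = 0.0123; 6.83% of all genes were lower) and Rsad2 higher (0.67 ± 0.21, adjusted p = 0.0392; 11.0% were higher). Of the dimmer Rsad2 probe sets, 1421009_at was also higher without overlap (log2 change 0.65), while 1421008_at overlapped (0.01). When its probe sets were averaged, Rsad2 was not called (0.44 ± 0.22, adjusted p = 0.199). The call of Rsad2 was lost without vehicle mouse 2 of the end (adjusted p = 0.152) or any vehicle mouse of the withdrawal time (0.128, 0.0647 and 0.0682). Without that vehicle mouse 2, 5 members were lower, where 5.58% of all genes were. With each array centred on its own median, 3 members were lower, where 9.84% of all genes were, and 0 higher, and the median of all genes in this comparison moved from 0.06 to -0.04. Macrophage markers were lower at the withdrawal time in vehicle mice for 14 of 20. B and plasma cell markers were higher then for 2 of the 3 tested.

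Within testosterone mice, 3 members were lower after withdrawal than at the end and 0 higher, where 5.31% of all genes were lower. They were Usp18 (-0.64 ± 0.19, adjusted p = 0.0397), Parp14 (-0.48 ± 0.13, adjusted p = 0.0271) and Psmb10 (-0.43 ± 0.11, adjusted p = 0.0168). The signals of each were lower in all 3 withdrawn mice than in all 3 mice at the end. Such a separation was seen downwards for 6 of the 32 members and upwards for 4. It was seen for 1159 and 1080 of the 7217 genes tested. The count was 0 without mouse 1 or mouse 2 of the end or mouse 3 of the withdrawal group, 1 without mouse 2 of the withdrawal group, and 5 without mouse 1 of that group, where 6.03% of all genes were lower. With the actin ratio in the model 0 were lower, where 0.818% of all genes were. In testosterone mice that ratio was 2.03 to 2.19 at the end and 1.47 to 1.82 after withdrawal, without overlap. RNA quality and time cannot be told apart here, and the part of RNA quality was not tested.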

How the data were processed

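The authors deposited 1 table of linear array intensities, 1 signal for each of 22690 probe sets and 12 arrays; GCOS and MAS5 are named, without versions, per the submitters' processing notes. Gene symbols came from the platform annotation: 20380 probe sets carry 1 symbol, 691 several and 1555 none, and 64 are controls. Signals under 4.84 were raised to that floor before log2, and no further scaling was applied. A gene was tested where its brightest probe set lay above the array median on at least 3 of 12 arrays. limma 3.58.1 in R 4.3.3 fitted 4 group means to 12 arrays with a variance trend, and the script was tested on simulated data. Folds are ratios of geometric means. Mice were grouped by the sample titles, no 2 arrays were identical (0 pairs), and 3 arrays per group limit the precision. All 34 members are named whatever their values, and from each further list up to 4 called genes per comparison and some fixed ones. The members and lists were chosen with earlier results of these data known. Alternatives covered scaling, floor, filter, probe set choice, the actin ratio, the samples fitted, the variance trend, a replicate block and each mouse left out. Promoter windows are from RefSeq.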

Additional observations from a re-analysis of the deposited data

How the results depend on the processing

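Fewer members were called lower with no brightness filter, which tests 12393 genes: 8 at the end in place of 13 and 7 after withdrawal in place of 11; all genes called were then 845 and 286 in place of 1258 and 433. When the actin ratio entered the model, 0 were lower at the end, Cxcl9 turned to 0.135, and 0 were called over time in vehicle mice in either direction and 0 lower in testosterone mice. Leaving out each mouse gave 8 to 16 lower at the end, 8 to 16 after withdrawal, 0 to 1 lower for the difference between times, 1 to 5 lower and 0 to 1 higher over time in vehicle mice, and 0 to 5 lower and 0 to 1 higher in testosterone mice. In these fits 5.07% to 7.36% of all genes were called lower at the end and 1.75% to 4.99% after withdrawal. Averaging probe sets gave 1 member higher for the difference, 2 lower and 0 higher over time in vehicle mice, and 1 higher in testosterone mice. Over time in vehicle mice, median centring gave 3 lower and 0 higher, quantile normalization 2 and 0, a pseudocount of 16 and a filter on 6 arrays 2 lower each, and no filter, only the groups compared and no variance trend 0 higher; in testosterone mice no filter gave 1 lower. The cause of these shifts was not tested. Deviations of same-numbered mice correlated at -0.194 to 0.00565 over 18 pairs and 0 of 12 mice correlated best with their own number, so numbers were not taken as pairs; a replicate block gave 13 lower at the end and 14 after withdrawal, and in all genes called 1025 in place of 1258, 355 in place of 433 and, for the difference, 55 in place of 158. Median centring changed the split of all genes called after withdrawal from 235 lower and 198 higher to 167 and 265, in vehicle mice over time from 493 and 795 to 710 and 475, and in testosterone mice from 383 and 402 to 453 and 292. Low signals, above the array median on 3 to 5 arrays, limit Ifit2, Oasl2 and Cxcl10.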
